A study of Mus musculus with 10 samples.

Results

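Gata4, Gata6, Nkx2-5, Mef2a, Mef2c, Mef2d, Tbx5, Tbx20, Hand2 and Srf encode transcription factors that build the heart in the embryo and stay on in adult heart muscle. The 10 genes were chosen by symbol, each matched 1 of the 23303 gene entries of the table, and none was at 0 in any library. Their RNA was measured in the left ventricle of 10 male mice of the strain 129X1/SvJ, of which 5 carried the label CKD (chronic kidney disease) under surgery and 5 the label Sham. The series concerns experimental uremic cardiomyopathy, the damage to heart muscle seen in kidney failure, and its design text calls the sham-operated mice normal. The sources used here give neither the operation that produced CKD nor the age of the mice or the time after surgery, so the groups are known only by these labels. Mice are numbered within a group only to name them.

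GATA4 and GATA6 are zinc finger proteins, NKX2-5 is a homeodomain protein, TBX5 and TBX20 are T-box proteins and HAND2 is a basic helix-loop-helix protein. The MEF2 proteins and SRF belong to the MADS-box family, whose members bind short boxes rich in adenine and thymine in the promoters of muscle genes. These factors bind together at the genes of the sarcomere, of ion channels and of the natriuretic peptides, and in adult heart muscle much of their activity is set by partner proteins, by kinases and by their place in the cell rather than by the level of their RNA. An RNA level is therefore a measure of the gene's transcript and not of the factor's activity.

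Promoter windows were read to show which of the binding sequences lie close to the start sites of the genes that the results turn on. The windows span the 250 bases before the transcription start in RefSeq (GRCm38.p6) and were searched on both strands for AGATAA, a site of the zinc finger factors, for TNAAGTG, a site of NKX2-5, for AGGTGT, a site of T-box proteins, for CATCTG, an E-box of the kind HAND proteins bind, and for the MEF2 box and the CArG box of SRF. Of 32851 RefSeq windows of that length, 9.99% held AGATAA, 10.1% TNAAGTG, 11.8% AGGTGT, 14.4% CATCTG, 2.92% a MEF2 box and 1.47% a CArG box. Windows were found for 7 of the 10 factor genes. Among these Srf held 2 CArG boxes, Hand2 held 1 AGATAA and 1 CATCTG, alternative starts of Mef2c held 1 AGGTGT and 1 CATCTG, and the windows of Nkx2-5, Mef2a, Mef2d and Tbx20 held none of the 6 motifs. Windows were also read for 7 targets, of which Acta1, Xirp2 and Nppb are printed. Of the other targets, Ankrd1 and Gja1 held AGATAA (at -47 and -135 from the start), Nppa held TNAAGTG and AGGTGT (at -241 and -248) and no AGATAA, and Hspb7 held CATCTG (at -17) and no MEF2 box. Within these 7 targets, AGATAA was thus in the windows of genes described below as higher in CKD (Nppb and Ankrd1) and lower (Gja1). All 7 were targets that passed in the comparison below. The windows of Kcnd2, Fgf16 and Chrm2, also described below as lower, were not read. No contrast between higher and lower genes can therefore be drawn from these windows. The first 2 sequences below are shown for their CArG boxes, in capitals: Srf itself (chr17:46556163-46556412, minus strand, boxes starting 82 and 62 bases before the start) and its target Acta1, skeletal alpha-actin (chr8:123894776-123895025, minus strand, box 73 bases before the start). The third, Xirp2, has a MEF2 box in capitals (chr2:67445752-67446001, plus strand, 74 bases before the start), and the fourth, Nppb, has AGATAA in capitals (chr4:147985650-147985899, plus strand, 84 bases before the start). The last is Mef2a (chr7:67372859-67373108, minus strand), in which no motif was found and nothing is in capitals. The annotated genes reach beyond these windows, Mef2a to 67376456 and Srf to 46558267. Both windows thus precede a start inside the annotated gene, and no other start of Mef2a or Srf was read.
Srf: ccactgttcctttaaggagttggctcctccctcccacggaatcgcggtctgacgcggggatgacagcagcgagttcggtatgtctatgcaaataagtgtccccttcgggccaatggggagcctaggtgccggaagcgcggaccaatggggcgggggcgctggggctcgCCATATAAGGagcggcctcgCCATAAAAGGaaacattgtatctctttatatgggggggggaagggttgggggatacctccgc
Acta1: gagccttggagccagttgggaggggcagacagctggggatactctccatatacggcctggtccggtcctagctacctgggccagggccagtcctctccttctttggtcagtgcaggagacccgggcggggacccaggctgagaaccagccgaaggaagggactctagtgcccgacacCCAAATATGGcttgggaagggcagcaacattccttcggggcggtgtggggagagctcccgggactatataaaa
Xirp2: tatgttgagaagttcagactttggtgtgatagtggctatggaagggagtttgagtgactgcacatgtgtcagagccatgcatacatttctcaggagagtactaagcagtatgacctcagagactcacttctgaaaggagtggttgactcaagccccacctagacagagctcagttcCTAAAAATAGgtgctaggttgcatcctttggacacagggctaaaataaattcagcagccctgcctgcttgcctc
Nppb: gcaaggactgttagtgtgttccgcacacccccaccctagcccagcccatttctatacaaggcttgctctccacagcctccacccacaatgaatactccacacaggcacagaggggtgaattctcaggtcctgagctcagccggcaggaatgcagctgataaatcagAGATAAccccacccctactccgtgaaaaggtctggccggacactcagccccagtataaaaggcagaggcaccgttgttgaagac
Mef2a: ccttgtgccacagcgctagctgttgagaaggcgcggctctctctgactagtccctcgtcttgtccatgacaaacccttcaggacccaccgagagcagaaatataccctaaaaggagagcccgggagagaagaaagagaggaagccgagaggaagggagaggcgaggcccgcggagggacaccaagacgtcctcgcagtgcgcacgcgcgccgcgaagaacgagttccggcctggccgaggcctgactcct
A match in these letters is a description of the window and not a measured binding site. Srf, a known target of its own protein, is also counted below among its targets.

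The libraries had 570509 to 605007 summed FPKM (fragments per kilobase of transcript scaled to the size of the library) and 15467 to 15832 genes above 0, and no pair was identical. CKD 1 and Sham 1 stood apart from the other 8 on the second principal component (17.4% of the variance), at 19.2 and 22.1 against -14.3 to 1.30, and they had the lowest Tnnt2, the cardiac troponin T gene, at 5835 and 6222 FPKM against 10001 to 11311 in the others. Counts of genes that passed in a list are therefore also given without these 2 libraries. In the lists of paralogues, other regulators, immediate early SRF targets and endothelial, epicardial, red cell and conduction system markers, 0 genes passed in either direction with or without them. Myl2, the ventricular myosin light chain, was between 16935 and 22199 FPKM in every library, while the atrial genes Myl7 and Sln, for a myosin light chain and sarcolipin, were at or below 2.17 FPKM in every library. Myh6 and Atp2a2, which heart muscle transcribes throughout, were listed at 0 in all 10 libraries, so these targets of GATA4 and TBX5 gave no value.

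Averaged over the 10 mice, the level per length was highest for Nkx2-5 (56.3 FPKM) and fell through Gata4 (48.0), Mef2a (40.7), Mef2d (39.9), Hand2 (38.3), Srf (35.1), Gata6 (29.3), Tbx20 (26.7) and Mef2c (13.3) to Tbx5 (7.79). These levels lay between the 42.5 percentile (Tbx5) and the 88.2 percentile (Nkx2-5) of all tested genes. Neighbours in the middle of this order could not be separated: Mef2a was above Mef2d in 5 of 10 mice, and Mef2d above Hand2 in 6 of 10. Tbx20 was above Mef2c in 10 of 10 mice with no overlap of their ranges, and Mef2c was above Tbx5 in 10 of 10. The other 8 genes had means of 26.7 to 56.3 FPKM, and Mef2c and Tbx5 lay below all of them in every mouse. Some neighbours differed in most mice, with Nkx2-5 above Gata4, Gata4 above Mef2a and Srf above Gata6 in 9 of 10 each. In GRCm38 the most abundant of them, Nkx2-5, lies on chromosome 17 from 26838664 to 26844988, and the least abundant, Tbx5, on chromosome 5 from 119796514 to 119885220.

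**Figure D1:**
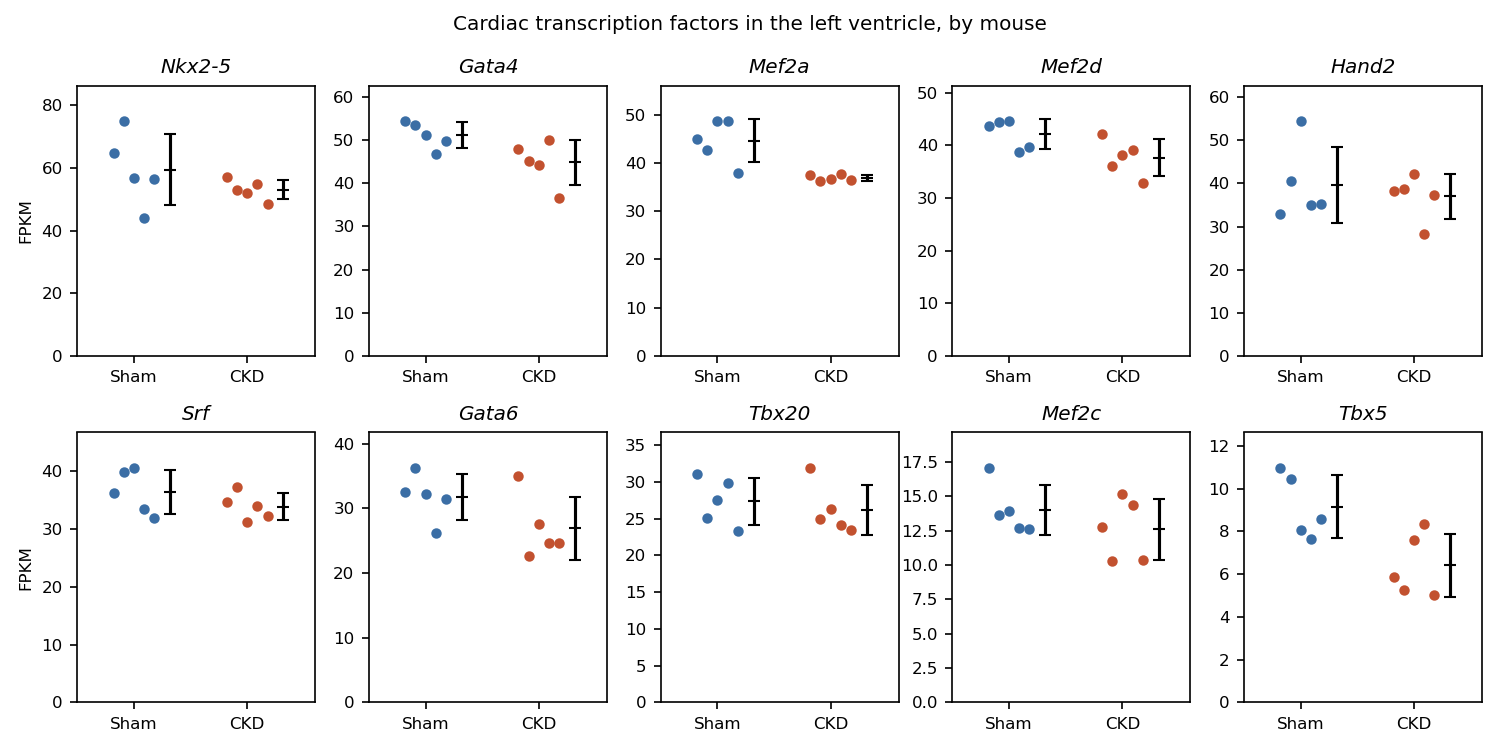
FPKM of each transcription factor gene (vertical axis, from 0) in 5 Sham mice (blue) and 5 CKD mice (red), with the mean and SD of each group beside the points. The groups are apart for Mef2a, whose 5 CKD mice lie between 36.2 and 37.6 FPKM below every Sham mouse, and overlap for the other 9 genes.

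CKD was compared with Sham for 11651 genes with a mean of at least 1 FPKM, among them all 10 factors, with limma on log2(FPKM + 0.5). Log2 changes are CKD minus Sham and p-values are adjusted by Benjamini-Hochberg over all tested genes, with a threshold of 0.05. At this threshold 1 of the 10 factors was lower in CKD, Mef2a, beside 2.12% of all genes, and 0 of 10 were higher, beside 3.17%. At an unadjusted p under 0.05, 4 of 10 were lower (Mef2a, Tbx5, Gata4 and Mef2d) beside 9.03% of all genes, and 0 of 10 were higher beside 10.5%. The groups did not overlap for 1 of 10, Mef2a, where 3.18% of all genes were lower and 4.1% higher without overlap. Without CKD 1 and Sham 1, 0 of 10 factors passed in either direction, against 2.13% of 11630 genes lower and 2.66% higher. At an unadjusted p under 0.05, 5 factors were lower and 0 higher without these libraries. The share of all genes at that p was not computed for this setting, so these counts have no matching background.

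The signs of the fitted changes were alike in the fit over all 10 libraries. The fitted change was negative for 10 of 10 factors, with a median of -0.16 and a range from -0.49 (Tbx5) to -0.06 (Tbx20), where all tested genes had a median of -0.003 and 51.1% negative. The 10 genes come from the same 10 hearts and are not independent of each other. Summed over the 10 factors, the CKD libraries held 343, 310, 321, 315 and 288 FPKM and the Sham libraries 368, 381, 378, 323 and 327. Sham 4 and Sham 5 lay among the CKD mice in this sum, and the groups overlapped. In bulk tissue, fewer cells of a type and less RNA per cell cannot be told apart.

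**Figure D2:**
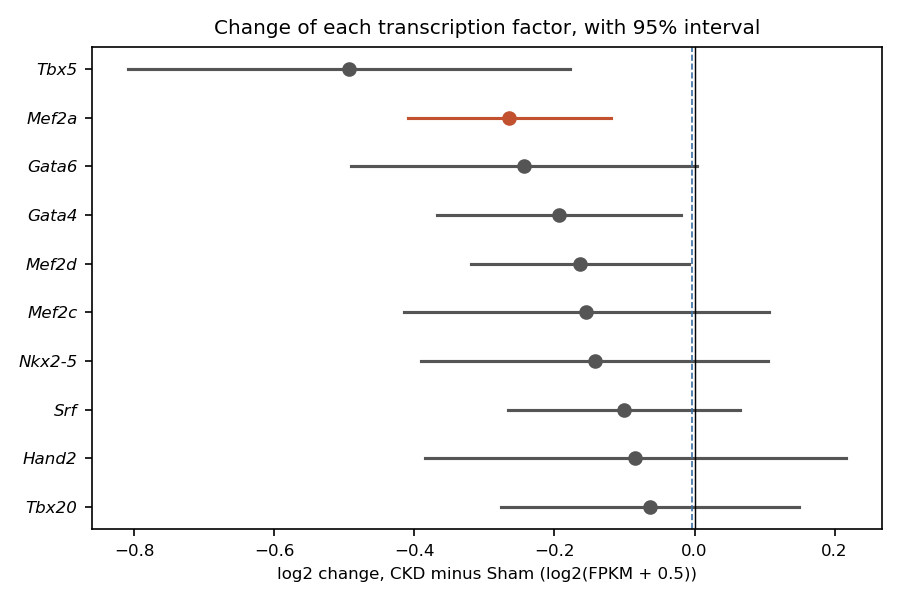
Fitted log2 change of each factor, CKD minus Sham on the log2(FPKM + 0.5) scale (points), with 95% confidence intervals from limma (bars) and the median of all tested genes (dashed line). All points lie below 0, and Mef2a (red) alone passed after adjustment over all genes.

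The MEF2 factors pass calcium and stretch signals on to genes of energy supply and the sarcomere, and Mef2a is the form needed in the adult heart for mitochondrial upkeep. Mef2a was at 37.4, 36.2, 36.7, 37.6 and 36.5 FPKM in CKD 1 to 5 and at 44.9, 42.7, 48.6, 48.6 and 38.0 FPKM in Sham 1 to 5. All 5 CKD mice lay below all 5 Sham mice, with Sham 5 only just above the highest CKD mouse, and the CKD mice were close to one another while the Sham mice were spread out. Mef2a fell from 44.6 ± 4.47 to 36.9 ± 0.621 FPKM (SD, n = 5 each), a fitted log2 change of -0.26 (16.7% on that scale) with an SE of 0.07 and an adjusted p of 0.0419. The SD of its log2 values was 0.15 in Sham and 0.02 in CKD, where the median SD over all tested genes was 0.14 and 0.13. The call was close to the threshold. It was lost on leaving out CKD 1 (adjusted p = 0.0576), CKD 2 (0.0992), CKD 3 (0.0833), CKD 4 (0.0629), CKD 5 (0.0890), Sham 1 (0.0727), Sham 2 (0.0638), Sham 3 (0.101) or Sham 4 (0.0921), and without both CKD 1 and Sham 1 (0.0840), with log2 changes of -0.32 to -0.23 over all alternatives.

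Mef2a lies on chromosome 7 from 67231163 to 67376456 (GRCm38), and 302 bases of its exons are also annotated to Lysmd4, a protein-coding gene on the opposite strand. Lysmd4 was at 10.7, 9.22, 10.4, 11.1 and 10.3 FPKM in CKD 1 to 5 and 15.9, 11.8, 11.8, 13.7 and 11.8 in Sham 1 to 5. It was thus lower in every CKD mouse than in every Sham mouse, with a log2 change of -0.31 (SE 0.09, adjusted p = 0.0698). Whether counting used strand is not stated in the sources used here, so reads of the shared bases cannot be told apart.

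Mef2d, the MEF2 form that responds to stress signals in heart muscle, was at 42.0, 36.1, 38.2, 39.1 and 32.8 FPKM in CKD 1 to 5 and 43.6, 44.4, 44.6, 38.7 and 39.6 in Sham 1 to 5. Of the CKD mice, 3 lay below the lowest Sham mouse, with CKD 1 and CKD 4 inside the Sham range. The change of -0.16 (95% interval -0.32 to -0.01) did not pass (adjusted p = 0.229). Its antisense neighbour 1700113A16Rik, which shares 531 exonic bases with it, had values of 10.2 to 15.1 FPKM in CKD and 12.7 to 17.5 in Sham (adjusted p = 0.288). Mef2c, which is needed to form the right ventricle and outflow tract, was at 12.8, 10.3, 15.2, 14.4 and 10.4 FPKM in CKD 1 to 5 and 17.1, 13.6, 13.9, 12.7 and 12.7 in Sham 1 to 5. Of the CKD mice, 2 were below all Sham mice and the others were spread across the Sham range (log2 change -0.15, interval -0.41 to 0.11, adjusted p = 0.530).

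Summed over the 3 genes, MEF2 transcripts came to 87.1 ± 5.65 FPKM in CKD (SD, n = 5) and 100.8 ± 6.62 in Sham (n = 5), from 79.7 to 92.2 and from 90.2 to 107. The ranges overlapped through Sham 5. The make-up of this pool differed by less than the spread between mice. Mef2a made up 42.4 ± 2.29% of it in CKD and 44.2 ± 2.81% in Sham, Mef2d 43.2 ± 1.64% and 41.9 ± 2.20%, and Mef2c 14.4 ± 1.86% and 13.9 ± 1.39%. Mef2a and Mef2d thus supplied most of the pool in both groups.

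**Figure D3:**
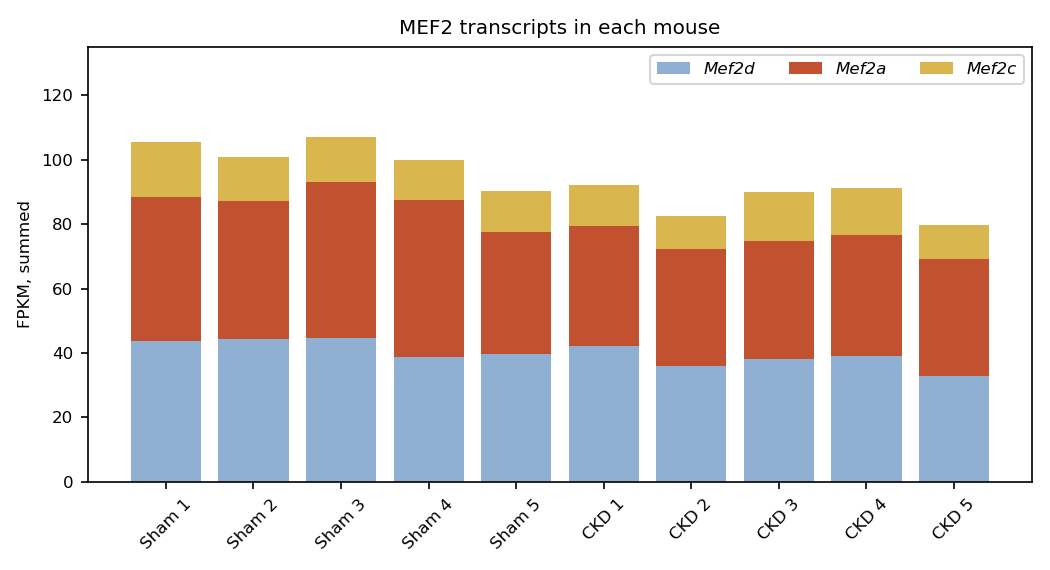
FPKM of Mef2d, Mef2a and Mef2c stacked for each mouse (bars start at 0). The totals run from 90.2 to 107 in Sham and from 79.7 to 92.2 in CKD, and the Mef2c segment is the smallest in all 10 mice.

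TBX5 and TBX20 act with GATA4 and NKX2-5 on genes of contraction and conduction, and TBX5 is known for its role in forming the septa and the conduction system. Tbx5 was at 5.85, 5.25, 7.58, 8.35 and 5.05 FPKM in CKD 1 to 5 and 10.99, 10.5, 8.09, 7.65 and 8.59 in Sham 1 to 5. Of the CKD mice, 4 lay below the lowest Sham mouse, and CKD 4 lay within the Sham range. The means were 6.42 ± 1.47 and 9.15 ± 1.48 FPKM (SD, n = 5 each), the widest difference of the 10 genes at -0.49 on the log2 scale (SE 0.14, interval -0.81 to -0.18). Its unadjusted p was 0.00524 and it did not pass after adjustment (0.0737). It passed without CKD 4 (adjusted p = 0.0324), and its adjusted p was 0.201 without CKD 1 and Sham 1.

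Tbx20, which adult heart muscle needs to keep its contractile and ion transport genes on, was at 31.9, 24.9, 26.4, 24.1 and 23.4 FPKM in CKD 1 to 5 and 31.1, 25.0, 27.6, 29.8 and 23.3 in Sham 1 to 5. The ranges covered each other almost entirely (log2 change -0.06, interval -0.28 to 0.15, adjusted p = 0.788). The ratio of Tbx20 to Tbx5 was 4.24 ± 1.04 in CKD and 3.04 ± 0.599 in Sham, with overlapping ranges of 2.89 to 5.46 and 2.39 to 3.89.

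GATA4 is a central factor of the growth response of heart muscle, and GATA6 shares many of its targets. Gata4 was at 48.0, 45.3, 44.2, 50.1 and 36.6 FPKM in CKD 1 to 5 and 54.4, 53.5, 51.1, 46.8 and 49.8 in Sham 1 to 5. All 5 CKD mice were below the Sham median, and 3 of 5 were below the lowest Sham mouse. The change of -0.19 (SE 0.08, interval -0.37 to -0.02) did not pass (adjusted p = 0.203).

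Gata6 was at 34.9, 22.6, 27.5, 24.7 and 24.7 FPKM in CKD 1 to 5 and 32.5, 36.3, 32.2, 26.2 and 31.5 in Sham 1 to 5. CKD 1 was second only to Sham 2 among the 10 mice, while 3 of the other 4 CKD mice were below every Sham mouse. The change was -0.24 (interval -0.49 to 0.00, adjusted p = 0.264), and -0.34 with an adjusted p of 0.0518 without CKD 1. The ratio of Gata4 to Gata6 was 1.70 ± 0.300 in CKD and 1.62 ± 0.116 in Sham, from 1.38 to 2.03 and from 1.47 to 1.79.

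NKX2-5 keeps heart muscle identity and the conduction system, and its gene was the most abundant of the 10. Nkx2-5 was at 57.0, 53.0, 52.1, 54.8 and 48.6 FPKM in CKD 1 to 5 and 64.8, 74.9, 56.8, 44.1 and 56.5 in Sham 1 to 5. The Sham mice spread far more than the CKD mice and Sham 4 was the lowest of all 10, so the groups overlapped (log2 change -0.14, interval -0.39 to 0.10, adjusted p = 0.547). Hand2, which is needed for the right ventricle and is also transcribed in non-muscle cells of the heart, was at 38.2, 38.8, 42.3, 28.3 and 37.4 FPKM in CKD 1 to 5 and 32.9, 40.5, 54.4, 35.0 and 35.2 in Sham 1 to 5. Its extreme values were Sham 3 at the top and CKD 4 at the bottom, and without either one its change of -0.08 (interval -0.38 to 0.22, adjusted p = 0.804) turned to 0.035 and 0.0078.

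SRF drives actin and other cytoskeletal genes with myocardin-type partners and immediate early genes with partners of the ETS family. Srf was at 34.6, 37.2, 31.2, 33.9 and 32.2 FPKM in CKD 1 to 5 and 36.2, 39.8, 40.6, 33.4 and 31.9 in Sham 1 to 5. The 2 highest values were both Sham and the groups otherwise mixed (log2 change -0.10, interval -0.27 to 0.06, adjusted p = 0.514).

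Of 22 paralogues of the same families, 4 reached the level to be tested, and none passed (1 of 4 higher at an unadjusted p under 0.05). This count depended on the filter. With no filter on the mean, 1 paralogue was higher and 0 lower, in a fit where 355 genes of the whole series were higher. The counts of this and the following lists stand beside 3.17% of all tested genes higher and 2.12% lower. At an unadjusted p under 0.05 those shares were 10.5% and 9.03%. Tbx2, a T-box repressor of the developing heart, had means of 4.51 ± 0.446 FPKM (CKD) and 3.63 ± 0.471 FPKM (Sham) (adjusted p = 0.121). Gata2, a factor of blood and endothelium, was at 7.73 and 6.83 FPKM (adjusted p = 0.388), Tbx3 at 4.46 and 4.37, and Tbx18 at 1.09 and 1.05. Nkx2-3, Nkx2-6, Tbx10, Tbx22 and Hand1 were listed at 0 in all 10 libraries.

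A further list of 49 regulators of heart development and muscle metabolism had 39 tested genes, of which 0 passed in either direction. At an unadjusted p under 0.05, 9 of 39 were lower and 2 of 39 higher, and the median change was -0.13, with 23 of 39 negative. Summed, the list stood at 387 to 411 FPKM in CKD and 416 to 441 in Sham, with no overlap. Such a sum is weighted to the abundant genes and was not tested, so it does not show a fall across the list. Meis1, a homeodomain partner of HOX proteins, was at 7.27 ± 0.458 and 8.95 ± 0.861 FPKM (log2 change -0.28, adjusted p = 0.0532). Esrra, a nuclear receptor for genes of oxidative metabolism, was at 59.4 ± 4.24 and 69.2 ± 4.00 FPKM with no overlap (-0.22, adjusted p = 0.0585). Neither gene passed.

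Among 39 partners and cofactors, 37 were tested, 1 was higher and 0 lower (2 and 5 at an unadjusted p under 0.05 in limma), with a median of 0.01 (1 higher and 2 lower without CKD 1 and Sham 1). Over all tested genes 3.17% were higher and 2.12% lower (10.5% and 9.03% at an unadjusted p under 0.05). The gene that passed was Csrp3, which encodes muscle LIM protein, a Z-disc protein that is also found in the nucleus. It rose from 1721 ± 85.6 to 1964 ± 101 FPKM (log2 change 0.19, SE 0.05, adjusted p = 0.0461). That call was lost on leaving out CKD 2, 3, 4 or 5 or any 1 Sham mouse. It was also lost with no filter on the mean, quantile normalization, median ratio scaling or no variance trend. The call held in 9 of 22 alternatives, and its highest adjusted p was 0.109 (without CKD 3). These 9 include the setting with a threshold of 0.1, which repeats the main fit. The other abundant partners did not pass: Fhl2, a LIM protein that binds SRF, was at 1276 and 1327 FPKM, Hopx, a homeodomain protein that restrains SRF, at 387 and 448, and Smyd1, a muscle methyltransferase, at 224 and 223.

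Of 26 tested kinases and signalling genes upstream of the factors, 1 was lower and 0 higher (4 and 1 at an unadjusted p under 0.05), with a median of -0.01 (1 lower and 1 higher without CKD 1 and Sham 1). All tested genes gave 2.12% lower and 3.17% higher (9.03% and 10.5% at an unadjusted p under 0.05). The gene that passed over all 10 libraries was Mapk14, which encodes the p38 alpha kinase that acts on MEF2 proteins. It was at 25.2, 23.3, 21.2, 23.8 and 22.4 FPKM in CKD 1 to 5 and 30.0, 27.8, 30.3, 25.7 and 28.8 in Sham 1 to 5. All CKD mice were below all Sham mice, and the change was -0.29 (SE 0.06, adjusted p = 0.0212). The call was lost without CKD 2, CKD 3, CKD 5 or Sham 3, where the adjusted p reached 0.0618 (without Sham 3).

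Of 30 tested contractile and cytoskeletal SRF targets, 1 was higher and 0 lower (10 and 1 at an unadjusted p under 0.05), with a median of 0.15 and 7 of 30 negative (3 higher and 0 lower without CKD 1 and Sham 1). The gene that passed was Acta1, with the CArG box printed above, at 1279, 1734, 1597, 1276 and 1188 FPKM in CKD 1 to 5 and 323, 279, 317, 330 and 354 in Sham 1 to 5. The groups were far apart, with a 4.37-fold rise (log2 change 2.13, SE 0.10, adjusted p = 1.26e-06). Among 14 immediate early SRF targets 0 passed, and 0 had an unadjusted p under 0.05 in either direction, with a median of -0.09. Their summed level ranged more widely among Sham mice (721 to 2232 FPKM) than among CKD mice (1011 to 1479). Cyr61, a secreted matrix protein of this list, was at 151 ± 33.6 and 176 ± 66.9 FPKM (adjusted p = 0.778).

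Of 29 tested MEF2 targets, 2 were higher and 0 lower (6 and 2 at an unadjusted p under 0.05), with a median of 0.05 (3 higher and 0 lower without CKD 1 and Sham 1). Xirp2, an actin-binding protein of the intercalated disc whose MEF2 box is printed above, was at 77.8, 85.9, 93.2, 83.3 and 98.2 FPKM in CKD 1 to 5 and 58.4, 67.8, 58.3, 64.7 and 64.9 in Sham 1 to 5. All CKD mice were above all Sham mice, a 1.39-fold rise (log2 change 0.48, SE 0.07, adjusted p = 0.00333). Hspb7, a small heat shock protein of heart muscle, rose from 1661 ± 123 to 2129 ± 81.0 FPKM (log2 change 0.36, adjusted p = 0.00351).

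Of 38 tested targets of GATA4, NKX2-5 and TBX5, 3 were higher and 4 lower (6 and 12 at an unadjusted p under 0.05), with a median of -0.07 (4 higher and 7 lower without CKD 1 and Sham 1). Nppa, the atrial natriuretic peptide gene, was at 2966, 4104, 3262, 3026 and 2829 FPKM in CKD 1 to 5 and 826, 1310, 1175, 1474 and 1810 in Sham 1 to 5. All CKD mice stood above all Sham mice, a 2.51-fold rise (adjusted p = 0.00189). Ankrd1, a stretch-induced ankyrin repeat protein, rose 1.76-fold (adjusted p = 0.00489). Nppb, the brain natriuretic peptide gene with AGATAA in its window, rose 1.72-fold (adjusted p = 0.0170, and 0.0525 without CKD 1 and Sham 1). Gja1, which encodes connexin 43, the gap junction protein of ventricular muscle, was at 273, 251, 254, 256 and 243 FPKM in CKD 1 to 5 and 371, 312, 352, 319 and 304 in Sham 1 to 5. Every CKD mouse was below every Sham mouse (log2 change -0.37, SE 0.06, adjusted p = 0.00489). Kcnd2, a channel of the transient outward potassium current, fell from 11.6 ± 1.06 to 8.07 ± 1.18 FPKM (-0.50, adjusted p = 0.0111).

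The remaining genes that fell were Fgf16, a heart growth factor, by 0.60 on the log2 scale (adjusted p = 0.0212), and Chrm2, the muscarinic receptor of heart muscle, by 0.34 (adjusted p = 0.0212). The Fgf16 call was lost without CKD 2, CKD 5 or Sham 2, at up to 0.0531, and the Chrm2 call without CKD 2 or Sham 2, at up to 0.0542 (each without CKD 2). Both remained below the threshold without CKD 1 and Sham 1, at 0.0148 and 0.0445.

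**Figure D4:**
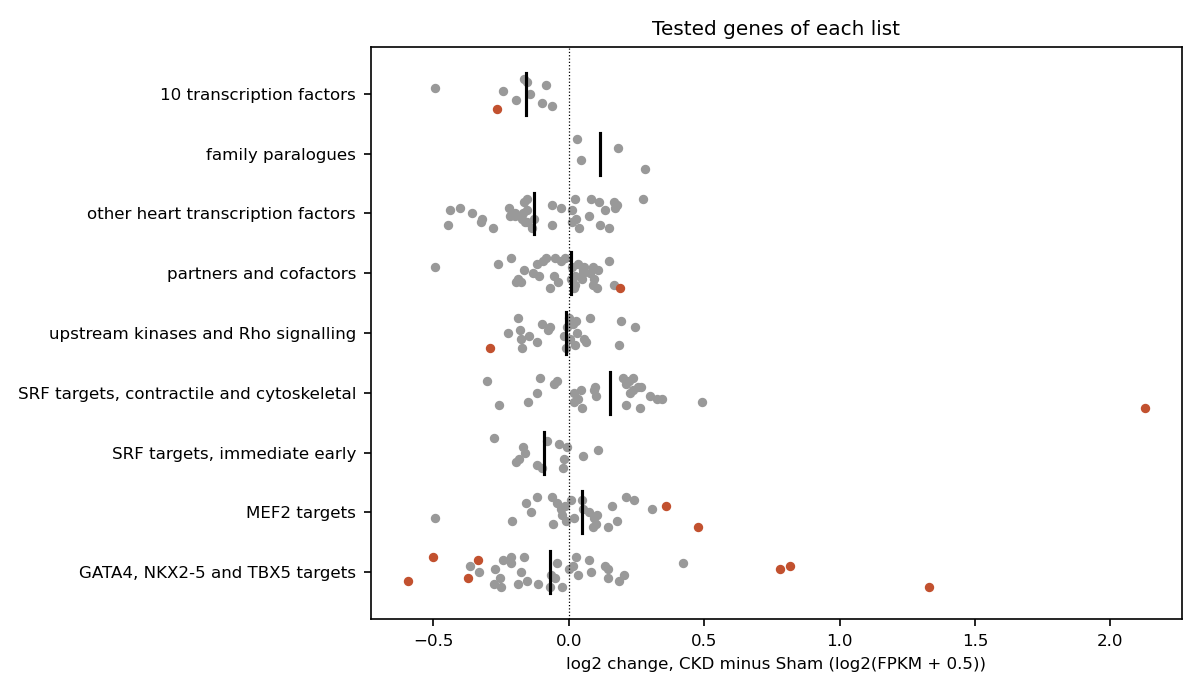
Log2 change, CKD minus Sham, of every tested gene (points) in the 10 transcription factors and the 8 related lists, with genes that passed in red and each list's median as a vertical bar. The median of the 10 factors is -0.16, that of the contractile SRF targets is 0.15, and the point farthest to the right is Acta1 at 2.13.

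**Figure D5:**
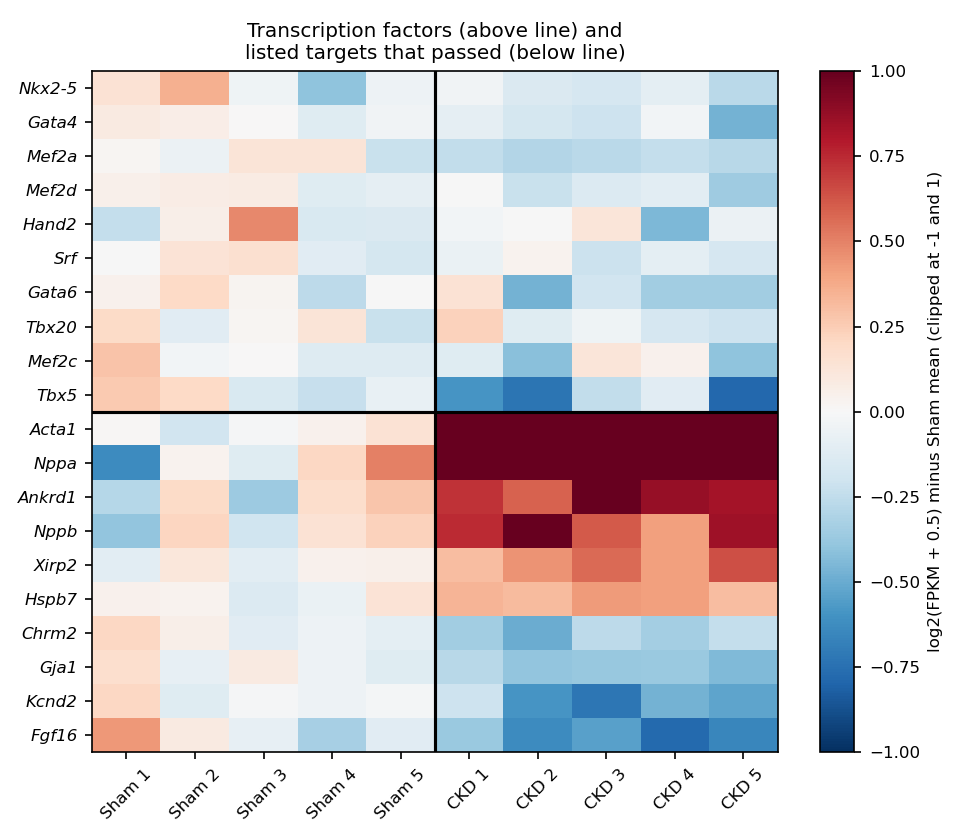
Each mouse's log2(FPKM + 0.5) minus the Sham mean for the 10 factors (above the line) and for the SRF, MEF2 and GATA4, NKX2-5 and TBX5 targets that passed (below it), with colours clipped at -1 and 1. The upper block is pale, with Tbx5 in CKD 2 and CKD 5 among its deepest values, while Acta1 and Nppa reach the end of the scale in all 5 CKD mice.

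The profile of Mef2a over the 10 libraries was most closely followed by Ghr, the growth hormone receptor, with a root mean square difference of 0.0438 between the centred log2 profiles. Ghr fell from 69.3 ± 5.15 to 58.0 ± 1.44 FPKM (log2 change -0.25, adjusted p = 0.0218) with no overlap. Rnf150 (0.0571), Phactr2 (0.0607), Rasgrp3 (0.0641) and Rftn2 (0.0663) came next, of which Phactr2 passed (-0.29, adjusted p = 0.0405). Since these genes were ranked by their likeness to Mef2a in the same mice, their changes are a description only.

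Fibroblast and macrophage markers differed between the same groups. Of 17 tested fibroblast markers 8 were higher and 0 lower (9 and 0 at an unadjusted p under 0.05, and 6 and 0 passing without CKD 1 and Sham 1), and their summed level was 1559 to 1778 FPKM in CKD and 1398 to 1524 in Sham. Mfap5 and Pi16, both of matrix-producing fibroblasts, rose by 1.07 and 0.74 on the log2 scale, and Col1a1 was at 30.3 ± 5.90 and 18.2 ± 3.00 FPKM (adjusted p = 0.0146, and 0.0599 without CKD 1 and Sham 1). Of 13 tested macrophage markers 6 were higher and 0 lower (10 and 0 at an unadjusted p under 0.05, and 5 and 0 passing without CKD 1 and Sham 1), with sums of 397 to 576 FPKM in CKD and 281 to 341 in Sham, and C1qa, a complement gene of tissue macrophages, was at 66.8 ± 9.32 and 37.5 ± 2.07 FPKM (adjusted p = 0.000813). Of 18 tested heart muscle markers 0 passed in limma in either direction (3 higher and 3 lower at an unadjusted p under 0.05, median -0.03, sums of 82652 to 102214 and 85980 to 103310 FPKM), with Actn2, a Z-disc actinin, nearest to passing (0.25, adjusted p = 0.0819). Without CKD 1 and Sham 1, 2 heart muscle markers were higher and 1 lower.

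Endothelial markers gave 0 of 17 passing in limma (2 higher at an unadjusted p under 0.05), with Pecam1 at 61.1 ± 6.20 and 55.7 ± 2.95 FPKM, and smooth muscle and pericyte markers 0 of 13 (3 higher and 2 lower at that p, and 1 higher passing without CKD 1 and Sham 1), with sums of 1706 to 1913 FPKM in CKD and 1483 to 1799 in Sham. Epicardial (0 of 6), red cell (0 of 3) and conduction system markers (0 of 6) did not pass either, with 1 higher, none, and 1 higher and 2 lower at an unadjusted p under 0.05. Only 5 of the 10 listed red cell genes had an entry, and the haemoglobin genes of that list had none, so they could not be read. Of 11 tested atrial markers 3 were higher and 3 lower, also without CKD 1 and Sham 1. Nppa supplied most of the summed atrial level, Stard10 and Sbk2 fell (-0.61 and -0.82), and Dkk3 rose (0.86). Of the defining atrial markers, Myl7 and Sln were at up to 2.17 and 1.05 FPKM, and Bmp10 was listed at 0 in all 10 libraries. The part of fibroblast and macrophage RNA in the lower values of the 10 factors was not tested.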

How the data were processed

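RNA of the left ventricle was sequenced as single reads from TruSeq mRNA libraries on an Illumina HiSeq instrument, per the labels' protocols. The authors deposited FPKM values in 1 table of all genes and mice. STAR 2.4.0f1, Cufflinks 2.1.1, Cuffdiff 2.1.1 and the builds mm10 and hg19 stand in the submitters' processing notes without a role. The handling of reads shared between genes is not stated there. FPKM is no count, so the depth behind a value is unknown, and the 5 mice per group and their spread set the precision.

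Groups were taken from the surgery label. Genes averaging at least 1 FPKM were compared as log2(FPKM + 0.5), with no further scaling, in limma 3.58.1 (R 4.3.3) with lmFit and eBayes, the prior variance following the mean level. Tests were two-sided, and p-values were adjusted by Benjamini-Hochberg over the 11651 genes. The pseudocount slightly understates changes of low genes. The fit was also run on simulated data with independent noise for each gene. That simulation held no outlying libraries such as CKD 1 and Sham 1, so it does not bear on their effect or on any single call. Each library is 1 mouse per the series' design text, and genes of a list are not replicates.

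The members and lists were chosen with earlier results of these data known, and list counts carry no test. Named are the 10 factors, overlapping genes, the 5 genes nearest to Mef2a in profile, 6 tissue markers (Tnnt2, Myl2, Myl7, Sln, Col1a1, Pecam1) and, per list, up to 4 genes that passed with the smallest p, or 2 where none passed, and for paralogues and partners also the 4 most abundant. Nppb, Fgf16, Chrm2 and the genes listed at 0 were named, and the promoters chosen for printing, after values were seen. The list of other regulators includes Bmp10, a growth factor. Positions and promoters are from RefSeq (GRCm38.p6), and overlaps between genes from GENCODE. Alternatives were other pseudocounts, filters, scalings, variance models, a threshold of 0.1 and leaving out libraries.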

Additional observations from a re-analysis of the deposited data

Results flagged for a closer look

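Mef2c in Sham 1, at 17.1 FPKM, was set apart from the other 4 Sham mice, which lay between 12.7 and 13.9 FPKM. Its gap to the nearest of them was 0.712 of the group's whole range, just above the 95% limit for 5 samples. It was the only value so set apart among 32 groups of 5 examined, and chance flags about 1 group in 20. Sham 1 is also 1 of the 2 libraries that stood apart on the second principal component.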

How the results depend on the processing

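Over 22 alternatives, the changes of all factors but Hand2 kept their sign. Mef2a passed in 9 of 22 (adjusted p 0.00863 to 0.101) and Tbx5 in 1 of 22 at the threshold of 0.05. The 9 for Mef2a include the setting with a threshold of 0.1, which is the main fit again, so its pass was fixed in advance. The number of factors lower in CKD was 0 with no filter on the mean, with libraries scaled to the same total, with no variance trend and without both CKD 1 and Sham 1, and 2 at a threshold of 0.1 (Mef2a and Tbx5), and it ran from 0 to 1 on leaving out 1 library. Without CKD 4 the 1 gene was Tbx5 in place of Mef2a. Genes higher in CKD numbered 369, and 633 at a threshold of 0.1, and genes lower numbered 247, and 400 with sample weights and 454 at a threshold of 0.1. On leaving out 1 library they ran from 202 (without Sham 3) to 385 (without CKD 4) and from 131 (without CKD 2) to 290 (without Sham 5). Hand2 turned from -0.08 to 0.0078 without CKD 4 and to 0.035 without Sham 3, within a range of -0.14 to 0.035 on leaving out 1 library. The cause of these shifts was not tested. The median of the 10 factors stayed between -0.21 and -0.11. No paired analysis was made because the labels give no pairing between CKD and Sham mice.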
